A study of Mus musculus with 12 samples.

Results

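The comparison concerns chromatin at the nuclear lamina in mouse 4-cell embryos given an siRNA against Rif1 (siRif1) or a control siRNA (siControl). It uses 6 of the 12 samples of the series, 3 siRif1_4C and 3 siControl_4C, which are all the samples labelled with these groups. The authors deposited 1 pooled list of lamina-associated domains (LADs) per group, drawn from its 3 replicates, and these 2 of the 4 lists of the series are the data described here. Embryos of both groups had the genotype (C57BL/6J xCBA) x DBA/2J and received 20 µM siRNA as zygotes, 17 to 18 h after hCG. At 46 to 48 h, both blastomeres of each 2-cell embryo received mRNA for a fusion of the bacterial methylase Dam to LaminB1 carrying an auxin-inducible degron (AID-Dam-LaminB1, 20 ng/µL), with Tir1 (250 ng/µL) and membrane-eGFP (100 ng/µL). Auxin (500 µM), which keeps the fusion degraded, was removed at 54 h, and embryos were harvested late in the 4-cell stage, at 60 to 62 h. A replicate was a pool of 16 to 24 blastomeres from 4 to 6 embryos. The lists thus describe pools of injected embryos that all carry the exogenous fusion, and they hold no measure of how far Rif1 was depleted.

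LADs are stretches of the genome that touch the protein meshwork under the inner nuclear membrane. They are usually poor in genes, rich in long tissue-specific genes and receptor gene clusters, and late in replication. Rif1 is a large chromatin protein that recruits protein phosphatase 1, restrains the firing of replication origins and sets late replication timing. The comparison asks how lamina contacts at the 4-cell stage differ when Rif1 is depleted. Below, a stretch is called gained when it is LAD in the siRif1 list alone and lost when it is LAD in the siControl list alone. Because there is 1 pooled list per group, no difference can be set against the spread between replicates, no p-value is given, and read depth is unknown. Coordinates are 1-based on GRCm38, chromosomes 1 to 19. Both lists lie on a grid of 100 kb, and the stretches of chromosome between the outermost LADs of the lists add up to 2364.4 Mb, called the span.

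The siRif1 list covered more of the genome than the siControl list but held fewer protein-coding genes. LADs covered 785.7 Mb (33.2% of the span) in siControl and 1038.4 Mb (43.9%) in siRif1. They held the midpoints of 4978 protein-coding genes in siControl and 4834 in siRif1, of 19747 in the span. The number was lower in siRif1 on 11 of 19 chromosomes, and on chromosome 9 it was higher, at 351 in siControl and 477 in siRif1. Gene density inside LADs was 6.34 protein-coding genes per Mb in siControl and 4.66 in siRif1. The 2 directions of difference were unlike in content. The 408 Mb that were gained held 1484 protein-coding genes (3.64 per Mb), and the 155.3 Mb that were lost held 1628 (10.5 per Mb). LADs present in both lists (630.4 Mb) held 5.31 genes per Mb, and the 1170.7 Mb outside LADs in both held 11.3. Gained stretches were thus poorer in genes than the LADs that both lists share, and lost stretches were about as rich as regions that were LAD in neither. Lost stretches were denser in genes than gained ones on all 19 chromosomes. The gained density ran from 1.43 (chromosome 19) to 8.08 per Mb (chromosome 17), and the lost density from 5.61 (chromosome 13) to 15.8 per Mb (chromosome 11).

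Gene-poor windows held much of the gained length. Every 100-kb bin was classed by the number of protein-coding midpoints in the 1.1 Mb window around it, a count that does not depend on the LAD lists. Windows with no gene were 7.52% LAD in siControl and 36.7% in siRif1, and windows with 1 to 2 genes 30.8% and 58.4%. These 2 classes held 206.2 Mb of the gained and 12.2 Mb of the lost bases, and 71.6 Mb of the gained bases lay in windows with no gene. Of the bases outside siControl LADs, 32.0% were gained with no gene, 43.5% with 1 to 2 genes and 45.7% with 3 to 5. The share over all bins was 25.8%. At 3 to 5 genes coverage was 54.5% and 67.8%, and at 6 to 10 genes 46.8% and 49.5%. At 11 to 20 genes the order was turned, with 25.3% in siControl and 22.3% in siRif1, and above 20 genes the lists were close (12.5% and 12.2%). The siControl list was thus most often LAD at an intermediate gene density and seldom in gene deserts, whereas the siRif1 list reached far into the gene-poor classes. In windows with at most 2 genes, coverage was higher in siRif1 on 19 of 19 chromosomes. In windows with 11 or more, it was lower in siRif1 on 15 of 19.

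**Figure D1:**
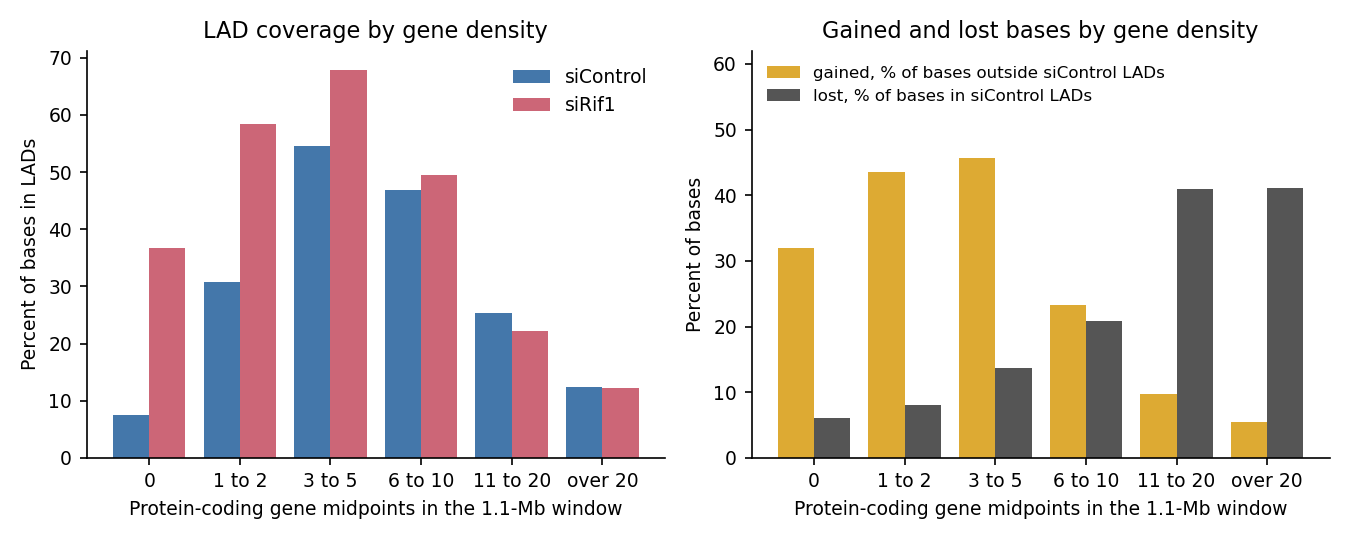
Left, percent of bases in LADs (vertical axis) in the siControl (blue) and siRif1 (red) lists by the number of protein-coding gene midpoints in the 1.1-Mb window around each 100-kb bin (horizontal axis). Right, gained bases as a percent of those outside siControl LADs (yellow) and lost bases as a percent of those in siControl LADs (grey). Each bar is 1 pooled list, so there are no error bars. Gains reach 45.7% at 3 to 5 genes and are 5.51% above 20 genes, whereas losses are 6.04% with no gene and 41.1% above 20 genes.

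Very long genes were gained more often, and lost less often, than shorter ones. Of the 14769 protein-coding genes outside siControl LADs, 1484 (10.0%) were gained, and of the 4978 inside, 1628 (32.7%) were lost. These are the background shares for the gene groups below, beside 25.8% and 19.8% for 100-kb bins. Among genes of 500 kb or more, 47 of 116 outside siControl LADs were gained (40.5%) and 5 of 98 inside were lost (5.10%). Among genes of 10 to 50 kb the shares were 7.74% and 38.6%. The shares of the longest genes were near those of all bases in windows with 1 to 2 genes (43.5% and 8.05%). Whether length matters apart from gene density was not tested. The typical gained gene was not long, however, with a median of 18.99 kb against 21.9 kb for lost genes and 18.0 kb overall. Without olfactory and vomeronasal receptor genes, which are short, this order turned, at 25.9 kb for gained and 23.5 kb for lost genes. The 214 genes of 500 kb or more had a median of 44.0% of their length in siControl LADs and 97.1% in siRif1 LADs. A larger part of the gene was LAD in siRif1 for 94 of them, a smaller part for 20, and an equal part for 100. In siRif1, 104 of these genes lay wholly in LADs, against 62 in siControl, and 39 lay wholly outside, against 73.

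The 10 longest genes that lay entirely inside gained stretches were of mixed function and included a neuronal splicing regulator and neuronal adhesion genes. Rbfox1, a neuronal splicing regulator of 1527.7 kb (chromosome 16, 5884793 to 7412480), had 0% of its length in siControl LADs and 100% in siRif1 LADs. The same held for Cntn5, a neuronal cell adhesion gene of 1270.6 kb (chromosome 9, 9634223 to 10904775). It also held for Tenm2, a teneurin of synaptic adhesion (1230.4 kb, chromosome 11, 36006656 to 37237053). The next were Sugct, Malrd1, the receptor phosphatase gene Ptprg, Cntnap5c of the neurexin-like adhesion family, Fstl5, Dock2 (an activator of Rac in blood cells) and Adgrv1 (an adhesion receptor of inner ear hair cells), between 837.3 and 538.3 kb in length. All 10 were fully LAD in siRif1 and not at all in siControl. In all, 1320 protein-coding genes lay wholly in gained stretches and 1475 wholly in lost ones.

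The 10 longest genes that lay entirely inside lost stretches were shorter and also of mixed function. The first was the zinc finger gene Zfp993 (478.6 kb, chromosome 4, 146512849 to 146991471), which was 100% LAD in siControl and 0% in siRif1. It was followed by Arid1b, a subunit of the BAF chromatin remodelling complex (353.4 kb, chromosome 17), and Pde11a, a phosphodiesterase gene (353.3 kb, chromosome 2). Then came the kinase gene Prkcb, the ubiquitin ligase gene Nedd4l, the dynein gene Dnah7b, the exchange factor gene Trio, the photoreceptor gene Rp1, the Hippo pathway kinase gene Stk3 and Tmcc3, from 345.3 to 279.3 kb. The 5 genes of 500 kb or more with a lost midpoint, named here after their values were seen, were Zfp804b, Exoc4, Lama2, Enox1 and Hpse2. Their bodies were 17.4, 89.8, 50.1, 74.6 and 68.7% LAD in siControl, in that order. Lama2 still had 18.4% and Enox1 21.5% of its length in siRif1 LADs, and the other three 0%.

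Promoter sequence differed between the classes in the same direction as gene density. RefSeq windows of 300 bases (250 before to 50 after a transcription start, GRCm38.p6) were matched to 15800 of the 19747 genes. CG dinucleotides, which are the targets of DNA methylation and are dense in the promoters of broadly used genes, were counted in each. The motif searched was CG, which reads the same on both strands and cannot overlap itself, and 94.96% of all these promoters held at least 1. The median promoter held 5 CG among gained genes, 17 among lost genes, 12 where both lists were LAD and 15 where neither was. A promoter was called CpG-rich when its GC content was at least 50% and its observed over expected CG ratio at least 0.6. By this measure 345 of 1164 gained promoters were CpG-rich (29.6%), against 704 of 1279 lost ones (55.0%), 43.1% in LADs of both lists, 49.1% outside both and 47.1% overall. Without olfactory and vomeronasal receptor genes the shares were 34.3% for gained and 57.2% for lost genes, with 3.16 and 10.1 genes per Mb, so the order of the classes did not rest on those families.

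Promoters of the longest wholly gained and wholly lost genes are shown, the 3 longest of each, because these genes lead their classes, with each CG in capitals. To these are added the first gained olfactory receptor gene and the first lost HoxD gene in genome order. The window for Tenm2 is the nearest in the table but lies 293 kb inside the gene, and the others lie within 1 kb of the annotated 5′ end.
Rbfox1 (LAD in siRif1 alone, chr16:5884543-5884842, plus strand, 3 CG): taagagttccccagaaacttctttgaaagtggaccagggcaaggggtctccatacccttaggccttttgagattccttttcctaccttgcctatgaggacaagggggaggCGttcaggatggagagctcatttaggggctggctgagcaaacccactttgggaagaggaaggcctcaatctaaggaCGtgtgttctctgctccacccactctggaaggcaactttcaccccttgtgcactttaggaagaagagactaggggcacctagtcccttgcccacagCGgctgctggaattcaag
Cntn5 (LAD in siRif1 alone, chr9:10904726-10905025, minus strand, 26 CG): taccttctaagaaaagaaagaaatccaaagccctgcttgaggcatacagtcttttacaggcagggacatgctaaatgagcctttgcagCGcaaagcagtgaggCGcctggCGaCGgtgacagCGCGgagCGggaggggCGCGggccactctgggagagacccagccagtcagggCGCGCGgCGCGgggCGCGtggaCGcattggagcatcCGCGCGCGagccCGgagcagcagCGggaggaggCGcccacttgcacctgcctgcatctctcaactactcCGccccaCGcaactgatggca
Tenm2 (LAD in siRif1 alone, chr11:36944192-36944491, minus strand, 2 CG): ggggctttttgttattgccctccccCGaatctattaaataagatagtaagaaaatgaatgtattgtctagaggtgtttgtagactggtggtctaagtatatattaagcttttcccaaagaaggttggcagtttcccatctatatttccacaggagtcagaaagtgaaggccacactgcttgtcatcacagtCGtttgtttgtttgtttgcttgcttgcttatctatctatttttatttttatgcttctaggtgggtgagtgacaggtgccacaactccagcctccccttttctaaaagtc
Olfr1408 (LAD in siRif1 alone, chr1:173137285-173137584, minus strand, 2 CG): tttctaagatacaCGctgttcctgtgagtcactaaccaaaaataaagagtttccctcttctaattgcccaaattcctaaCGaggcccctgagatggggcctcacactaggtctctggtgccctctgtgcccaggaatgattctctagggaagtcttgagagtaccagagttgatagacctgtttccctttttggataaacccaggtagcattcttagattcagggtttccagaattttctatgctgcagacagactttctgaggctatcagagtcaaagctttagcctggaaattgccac
Zfp993 (LAD in siControl alone, chr4:146512599-146512898, plus strand, 4 CG): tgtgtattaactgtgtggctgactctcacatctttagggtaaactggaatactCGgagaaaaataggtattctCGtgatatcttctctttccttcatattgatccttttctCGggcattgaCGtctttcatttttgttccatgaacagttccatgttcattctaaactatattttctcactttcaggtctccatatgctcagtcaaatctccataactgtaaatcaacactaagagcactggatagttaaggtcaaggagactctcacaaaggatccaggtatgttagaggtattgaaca
Arid1b (LAD in siControl alone, chr17:4994824-4995123, plus strand, 42 CG): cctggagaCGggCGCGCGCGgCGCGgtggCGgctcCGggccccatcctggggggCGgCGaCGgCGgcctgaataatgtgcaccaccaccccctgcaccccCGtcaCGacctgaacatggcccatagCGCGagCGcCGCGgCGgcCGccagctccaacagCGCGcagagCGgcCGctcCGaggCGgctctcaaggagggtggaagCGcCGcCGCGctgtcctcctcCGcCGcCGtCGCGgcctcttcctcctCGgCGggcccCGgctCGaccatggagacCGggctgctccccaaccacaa
Pde11a (LAD in siControl alone, chr2:76338889-76339188, minus strand, 20 CG): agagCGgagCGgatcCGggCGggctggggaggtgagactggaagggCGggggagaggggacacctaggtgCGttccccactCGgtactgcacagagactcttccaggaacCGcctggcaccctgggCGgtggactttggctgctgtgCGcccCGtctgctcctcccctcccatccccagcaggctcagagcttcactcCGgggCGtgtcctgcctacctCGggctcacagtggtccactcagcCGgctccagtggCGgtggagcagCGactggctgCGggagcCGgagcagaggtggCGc
Hoxd13 (LAD in siControl alone, chr2:74667975-74668274, plus strand, 37 CG): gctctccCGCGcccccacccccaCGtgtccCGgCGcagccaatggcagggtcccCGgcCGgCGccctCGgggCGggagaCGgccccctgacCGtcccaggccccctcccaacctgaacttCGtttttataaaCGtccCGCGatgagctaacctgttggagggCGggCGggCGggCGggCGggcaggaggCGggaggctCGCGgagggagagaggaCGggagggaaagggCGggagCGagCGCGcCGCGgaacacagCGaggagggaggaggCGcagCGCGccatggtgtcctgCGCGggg
Rbfox1, Tenm2 and Olfr1408 held 2 to 3 CG, whereas Arid1b, Pde11a and Hoxd13 held 20 to 42. Cntn5 (26 CG) and Zfp993 (4 CG) lay against the order of their classes, so the classes overlap and the difference is one of shares.

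Of the genes of neuronal adhesion and synaptic signalling, the long ones and the receptors were found more on the gained side, and the cadherin families were not. Of 40 long neuronal and adhesion genes, 9 of the 31 outside siControl LADs were gained (29.0%, background 10.0%). Among them were Cntn5, Cntnap5a, Cntnap5c, Dlg2, Nkain2, Nlgn1, Rbfox1 and Tenm2, and the 9 lay on 9 different stretches. None of the 9 inside was lost (background 32.7%). The share gained was close to that of 100-kb bins (25.8%) and below that of all genes of 500 kb or more (40.5%). Nlgn1, the postsynaptic partner of neurexins, had 8.6% of its length in siControl LADs and 63.5% in siRif1 LADs. Dlg2, a scaffold of the postsynaptic density, had 49.3% and 74.7%, so its body crossed a border in both lists. Of 39 glutamate and GABA receptor genes, 7 of 32 were gained and 1 of 7 lost. Among the gained were the AMPA receptor gene Gria4 (0% and 100% of its length), the delta receptor gene Grid1 (49.8% and 100%), and the metabotropic receptor genes Grm3 (47.8% and 100%) and Grm8 (95.9% of its length in siRif1 LADs). The GABA receptor gene Gabra5 was gained on chromosome 7 (0% and 100%), and the kainate receptor gene Grik5 was lost. Potassium channel genes, which set the excitability of cells, differed less, with 6 of 59 gained and 4 of 27 lost. Classical and atypical cadherins gave 1 of 17 gained (Cdh20) and 1 of 5 lost (Cdh17). None of 57 clustered protocadherin genes, which encode adhesion proteins of neurons, was LAD in either list.

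Most chemosensory receptor genes did not differ, and 654 of 1082 olfactory receptor genes were LAD in neither list. Of 810 olfactory receptor genes outside siControl LADs, 156 were gained (19.3%, against 10.0% of genes and 25.8% of bins), on 16 stretches of 10 chromosomes, and 32 of the 272 inside were lost (11.8%). Neighbouring receptors share a stretch, so these are not 156 separate events. Vomeronasal receptor genes, which detect pheromones, were gained in 40 of 295 cases (13.6%, 10 stretches) and lost in 23 of 52 (44.2%, 2 stretches). None of the 18 bitter taste receptor genes outside siControl LADs was gained and 7 of 17 inside were lost (41.2%, background 32.7%), on only 2 stretches. Of these, Tas2r104, Tas2r105, Tas2r106, Tas2r107, Tas2r114 and Tas2r130 lay together on chromosome 6, and Tas2r134 on chromosome 2.

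Several clustered families of metabolism, defence and skin differed in blocks. The conjugation enzymes of the UDP-glucuronosyltransferase and sulfotransferase families were gained in 10 of 28 cases (35.7%), on only 3 stretches, and lost in 1 of 14. The largest block held Ugt2a1, Ugt2b38 and their neighbours on chromosome 5, where Ugt2a1 lies at 87459490 to 87490871. Cytochrome P450 genes were gained in 14 of 68 cases on 4 stretches and lost in 7 of 28. Serpins, inhibitors of proteases, were gained in 10 of 53 cases and lost in 0 of 9, all 10 belonging to the B clade and lying on 2 stretches of chromosomes 1 and 13. Interferons, chemokines and their receptors were gained in 10 of 31 cases (3 stretches) and lost in 7 of 33. Keratin and keratin-associated genes gave 9 of 83 and 7 of 20, each on 1 stretch. C-type lectin and killer receptor genes gave 2 of 30 and 1 of 26, the scattered solute carriers 15 of 253 and 25 of 86 (14 and 23 stretches), and Pramel genes 2 of 25 and 4 of 20. No beta defensin gene (42) or alpha defensin gene (28) was LAD in either list.

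Among genes of basic cell functions that differed, most were lost. Over 6 lists (cytosolic ribosomal proteins, proteasome, mitochondrial complex I, spliceosome, the RNA polymerase II machinery and aminoacyl-tRNA synthetases), 310 genes were measured. Of the 63 in siControl LADs, 40 (63.5%, background 32.7%) were lost, and of the 247 outside, 11 (4.45%, background 10.0%) were gained. The 40 lost genes lay on 36 stretches of 18 chromosomes, so they do not come from a few clusters. Ribosomal protein genes were lost in 7 of 12 cases, namely Rpl19, Rpl27a, Rpl30, Rplp0, Rps24, Rps27a and Rps29, and gained in 0 of 60. With genes placed by transcription start, known only for those with a matched promoter, 4 ribosomal protein genes were lost. Genes without a matched promoter drop out of that count. Placed by at least 50% or by the whole of their length, 7 were lost. Complex I genes were lost in 6 of 7 cases (Ndufa12, Ndufa5, Ndufb1, Ndufb2, Ndufb6 and Ndufs1), and Ndufs4 was gained, 1 of 25. Spliceosome genes were lost in 9 of 14 cases, among them Snrpb2, Snrpd1, Srsf6 and Srsf7. In the list of RNA polymerase II, Mediator and TFIID, 11 of 14 genes were lost, such as Polr2f, Polr2h, Med1, Taf2 and Taf3, and 4 of 53 gained. These 11 include Taf1a, which serves RNA polymerase I. The 9 lost genes of the spliceosome list include Lsm11, which serves histone mRNA processing. Both shares thus count a gene from outside the named machinery. Proteasome genes gave 4 of 8 lost and 3 of 38 gained, and aminoacyl-tRNA synthetases 3 of 8 lost (Ears2, Kars and Nars) and 2 of 26 gained (Fars2 and Yars2). Each of these lists alone has few genes in LADs, so the single shares are imprecise.

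**Figure D2:**
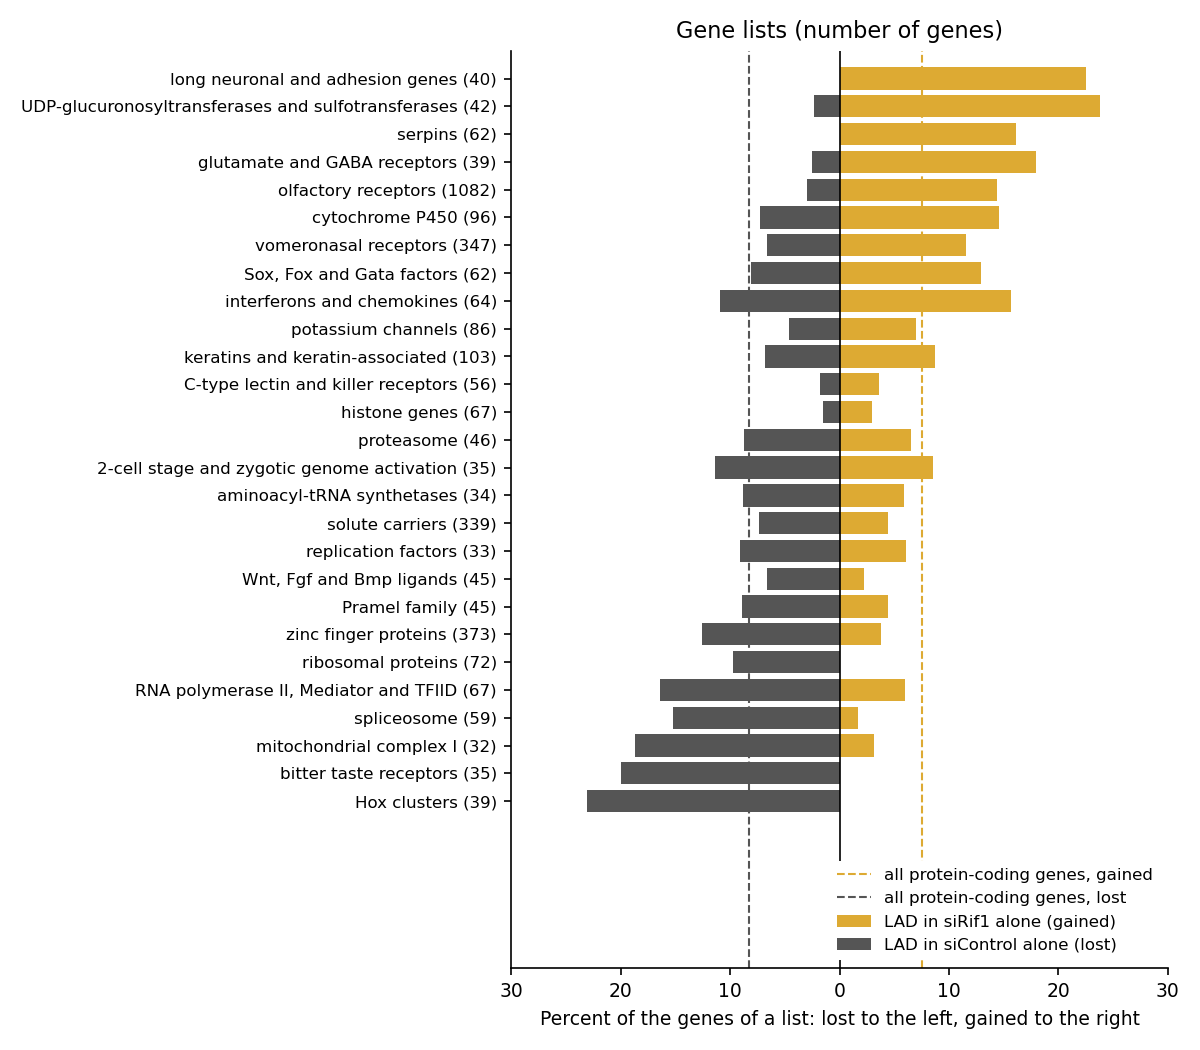
Percent of the genes of each list that were gained (yellow, to the right) or lost (grey, to the left), for lists of at least 30 genes with any difference and the number of genes in parentheses. Dashed lines mark all protein-coding genes. Long neuronal genes (9 of 40 gained, 0 lost) stand at the top, and complex I, bitter taste receptor and Hox genes (6 of 32, 7 of 35 and 9 of 39 lost) at the bottom.

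Few regulators of chromatin and of the nucleus lay in LADs, so the shares lost are imprecise. None of 19 heterochromatin and Polycomb genes outside siControl LADs was gained, and 4 of 7 inside were lost. These were Cbx5 (heterochromatin protein HP1 alpha), the histone H3 lysine 9 methylase genes Suv39h2 and Ehmt2, and Setdb2, on 4 stretches. Each was 100% LAD in siControl, except Ehmt2 with 90.1%, and 0% in siRif1. Of 33 replication genes, the origin licensing genes Orc4 and Cdc6 and the origin-firing kinase gene Cdc7 were lost, 3 of 6, and the helicase genes Mcm4 and Mcm5 were gained, 2 of 27. Rif1 itself (chromosome 2, 52072815 to 52126769) was LAD in neither list, with its midpoint 0.0998 Mb from the nearest siControl LAD and 0.500 Mb from the nearest siRif1 LAD. Of 21 genes of the lamina and nuclear envelope, 3 of 5 in siControl LADs were lost. They were Lmnb1, which encodes lamin B1, Sun2, which links the lamina to the cytoskeleton, and Tmem201. Lmnb1 lay 0.0694 Mb from the nearest siRif1 LAD, and Sun2 6.73 Mb. The pore basket gene Tpr was gained, 1 of 16. Tmpo and Syne1 were 100% LAD in both lists. Imprinted genes were lost in 3 of 6 cases (Impact, Nckap1 and Zdbf2) and gained in 0 of 16. Of 67 linker and core histone genes, the linker histone gene H1f0, which stands alone, was lost, and the neighbours H2ac1 and H2bc1 were gained.

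Developmental regulators were found on both sides. Of 26 germ layer and neural regulators, 5 of 22 were gained on 5 stretches and 1 of 4 was lost. Among the gained were the heart and limb gene Hand2, the forebrain genes Lhx2 and Nkx2-1 and the muscle gene Myf5, each at 0% in siControl and 100% in siRif1 LADs. Pax3, a regulator of neural crest and muscle, was the reverse. Sox, Fox and Gata factors gave 8 of 43 gained and 5 of 19 lost. Sox4 and the forkhead genes Foxc1, Foxf2 and Foxq1 were gained on chromosome 13, Sox6 on chromosome 7 and Sox11 on chromosome 12, while Gata6, Sox10, Sox17, Sox30 and Foxn2 were lost. The 9 lost Hox genes are the HoxD cluster on 1 stretch, and no other Hox gene was LAD in either list. Secreted Wnt, Fgf and Bmp signals gave 1 gained (Bmp4) of 33 and 3 lost (Fgf20, Wnt2b and Wnt8a) of 12.

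Few genes of the early embryo lay in siControl LADs, so the shares lost are imprecise. Background shares were 10.0% gained and 32.7% lost. Of 20 pluripotency genes, Nr5a2 and Zfp42 were gained, 2 of 17 outside siControl LADs (11.8%). The neighbours Dppa2 and Dppa4 were lost, 2 of 3 inside (66.7%), on a single stretch. A border crossed both gained genes, with 51.3% of the length of Nr5a2 and 58.7% of Zfp42 in siRif1 LADs. Among 12 primitive endoderm genes, Dab2 and Pdgfra were gained (2 of 7) and Gata6 and Sox17 lost (2 of 5). None of 15 trophectoderm genes differed. Of 35 genes transcribed in 2-cell embryos, Duxf3, Tdpoz8 and Zfp42 were gained (3 of 25), and Arg2, Pramel6, Pramel7 and Spz1 were lost (4 of 10). Zinc finger genes, many of which encode repressors of transposons, were lost in 47 of 87 cases (54.0%, 19 stretches) and gained in 14 of 286 (4.90%, 11 stretches).

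The longest gained stretches held fewer genes than the longest lost stretches. The 10 longest gained stretches spanned 2.4 to 3.7 Mb. The first, on chromosome 9 (9600001 to 13300000), held Cntn5, Ccdc82 and Jrkl, the next, on chromosome 11 (12800001 to 16400000), Vstm2a and Pom121l12, and another of chromosome 11 (36000001 to 39300000) Tenm2 alone. On chromosome 3, 59100001 to 62000000 held 17 genes, among them Med12l, Mbnl1 and P2ry12, and 75900001 to 78800000 held Fstl5 and Golim4. The others were on chromosome 5 (16700001 to 19500000; Sema3c, Cd36, Gnai1), chromosome 3 (3700001 to 6200000; Zfhx4, Pex2), chromosome 4 (28500001 to 31000000; Epha7), chromosome 13 (9200001 to 11600000; Chrm3, Dip2c, Zmynd11) and chromosome 15 (52300001 to 54700000; Samd12, Ext1, Colec10). Only the stretch with Med12l held more than 7 protein-coding genes.

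The 10 lost stretches listed as longest spanned 1.3 to 2.8 Mb and held 7 to 29 protein-coding genes each. Stretches of equal length were taken with chromosome names ordered as text, in which 16 comes before 7. Others of 1.3 Mb, such as one of 62 genes on chromosome 7, therefore fall outside the 10. The first lay on chromosome 18 (10400001 to 13200000), with 19 genes, among them Lama3, Greb1l and Osbpl1a and the endoderm regulator Gata6. The following lay on chromosome 1 (119600001 to 121500000; Ptpn4, Cfap221, Ccdc93), chromosome 13 (91200001 to 93100000; Rasgrf2, Ssbp2, and the mismatch repair gene Msh3), chromosome 18 (64400001 to 66300000; Nedd4l, Ccbe1, Atp8b1), chromosome 2 (143000001 to 144700000; Pcsk2, Dtd1, Bfsp1) and chromosome 8 (45900001 to 47600000; Stox2, Enpp6, Snx25). The seventh, on chromosome 17 (20900001 to 22500000), was a whole siControl LAD of 29 genes that included the zinc finger genes Zfp53, Zfp942 and Zfp946. The last were on chromosome 7 (121700001 to 123200000; Prkcb, Tnrc6a, Cacng3), chromosome 1 (77500001 to 78800000; Sgpp2, Mogat1, Pax3) and chromosome 16 (43700001 to 45000000; Sidt1, Cfap44, Gramd1c).

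The gained stretches richest in genes included epidermal, keratin-associated and olfactory receptor clusters. The first was 1.4 Mb of chromosome 3 (92000001 to 93400000) with 50 protein-coding genes, among them the epidermal barrier genes Flg and Flg2 and the peptidoglycan recognition gene Pglyrp3. Others included olfactory receptor genes on chromosome 2 (110200001 to 112100000, 40 genes) and chromosome 17 (37300001 to 38000000, 26 genes), keratin-associated genes such as Krtap6-2 on chromosome 16 (88900001 to 89500000, 39 genes), and Pknox2, Pate2 and Fez1 on chromosome 9 (35500001 to 37300000, 28 genes). The richest of the lost stretches, on chromosome 7 (126100001 to 127400000), held 62 genes, among them the nuclear export factor gene Xpo6, Sbk1 and Tmem219. On chromosome 15 (78800001 to 79800000), 36 genes included Triobp, Fam227a and the meiotic recombinase gene Dmc1, and chromosome 6 (56700001 to 57700000) held 26, among them Herc6, Fkbp9 and Avl9. The stretch with Zfp53 held 29, and one on chromosome 17 (36500001 to 37200000) held 25, including the olfactory receptor gene Olfr91, Gabbr1 and Trim26, close to the gained olfactory receptor genes of that chromosome.

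Other kinds of annotated genes differed from protein-coding genes (10.0%) on the gained side, and each was gained less often than 100-kb bins (25.8%). Pseudogenes were gained in 1270 of 6022 cases (21.1%), lncRNA genes in 1304 of 8017 (16.3%) and snRNA genes in 131 of 602 (21.8%). tRNA genes were gained in 12 of 335 cases (3.58%) and miRNA genes in 66 of 876 (7.53%). On the lost side the shares of pseudogenes (24.0%), lncRNA genes (25.7%) and miRNA genes (29.6%) lay below that of protein-coding genes (32.7%). The same held for snRNA genes (25.9%), snoRNA genes (22.0%) and tRNA genes (6 of 48, 12.5%). The share of bins lost was 19.8%. Of the variable segments of immunoglobulin and T cell receptor loci, 65 of 351 were gained (18.5%, against 10.0% of protein-coding genes and 25.8% of bins). None of 23 was lost. These segments lie in clusters and their stretches were not counted, so they are not separate events.

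Most siControl LADs were still present in siRif1, and the lists differed more by lengthening and joining than by loss of whole LADs. Of 601 siControl and 644 siRif1 LADs, 310 matched 1 to 1. A further 140 siControl LADs were joined into 63 siRif1 LADs, 28 were split into 64, and 40 overlapped 38 siRif1 LADs in larger groups. A total of 83 siControl LADs (13.8%, 36.9 Mb) had no siRif1 partner, and 169 siRif1 LADs (26.2%, 105.1 Mb) had no siControl partner. LADs without partner were mostly short in siControl. Of siControl LADs of at most 0.3 Mb, 47 of 121 were absent from siRif1 (38.8%), against 33 of 222 at 0.4 to 1 Mb, 3 of 205 at 1.1 to 3 Mb and 0 of 53 above 3 Mb. Of siRif1 LADs, 50 of 76, 88 of 222, 30 of 253 and 1 of 93 in the same classes were absent from siControl. Long LADs made up more of the siRif1 list, with 93 above 3 Mb (420.2 Mb) against 53 (226.6 Mb).

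The siRif1 LADs that joined the most siControl LADs lay on chromosome 9. Of the siRif1 LADs, 51 joined 2 siControl LADs, 10 joined 3 and 2 joined 4, and both of the latter lay there. The first spanned 11.2 Mb (3000001 to 14200000) with 40 protein-coding genes, among them Cntn5, the Notch coactivator gene Maml2 and Gria4, of which 4.9 Mb were LAD in siControl. The other spanned 9.8 Mb (78600001 to 88400000), with Mei4, Filip1 and Bckdhb, of which 5.5 Mb were LAD in siControl. Sets of 3 siControl LADs were also joined around Bbs9 and Bmper and around Opcml and Ntm, a pair of neuronal adhesion genes, on the same chromosome. As a result it had 43 LADs in siControl and 27 in siRif1, while its coverage was 44.4% and 66.2%. The reverse, splitting, was largest on chromosome 3 (101900001 to 107300000), with Kcnd3, Magi3 and Sycp1, and on chromosome 7 (106200001 to 116000000), with Sox6, Galnt18 and Sbf2. In both, 1 siControl LAD corresponded to 4 siRif1 LADs, and the regions held 65 and 126 protein-coding genes. Sox6, at the end of the chromosome 7 region, was itself gained, with 40.2% of its length in siControl LADs and 92.8% in siRif1 LADs.

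From 0.3 Mb upward, narrower gaps between siControl LADs were closed more often than wider ones. Of 582 gaps, 102 were wholly LAD in siRif1, a condition that is harder to meet for a wide gap. The share was 46.3% at 0.3 to 0.5 Mb (25 of 54), 36.1% at 0.6 to 1 Mb, 18.1% at 1.1 to 2 Mb and 3.91% at 2.1 to 5 Mb, and none of 81 gaps above 5 Mb was closed. The share of gap bases that were LAD in siRif1 fell less, at 48.5, 48.6, 37.6, 26.5 and 16.5% in the same classes. Of 625 gaps between siRif1 LADs, 59 were wholly LAD in siControl. That share fell with width too, at 25.5, 17.2, 4.27, 0 and 0%. Gaps of 0.1 to 0.2 Mb numbered 2 in siControl and 3 in siRif1, and none of these was closed. The longest closed gaps are those around Cntn5, Vstm2a, Med12l, Fstl5 and Sema3c described above. The longest new gaps held Pcsk2 (1.7 Mb, chromosome 2), Prkcb (1.5 Mb, chromosome 7), Sidt1 (1.3 Mb, chromosome 16), Atp9b and Nfatc1 (1.3 Mb, chromosome 18, 80100001 to 81400000) and Stk33 and Trim66 (1.3 Mb, chromosome 7, 109000001 to 110300000), with 11 to 19 genes each.

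Borders of LADs present in both lists lay further out in siRif1 more often than further in. Of 836 outer borders, 407 lay at least 100 kb outward (48.7%), 230 inward (27.5%) and 199 at the same place. Outward moves had a median of 0.3 Mb and summed to 201.9 Mb, and inward moves had a median of 0.2 Mb and summed to 79.2 Mb. Left and right borders were alike, with 202 and 205 outward and 116 and 114 inward. Many moves were small, and 390 borders (46.7%) lay within 1 bin of each other, of which 104 were outward and 87 inward by 0.1 Mb. Among the 310 LADs that matched 1 to 1, 175 were longer in siRif1, 93 shorter and 42 of equal length, with a median change of 0.1 Mb. In 68 both ends lay outward, in 28 both inward and in 87 one end each way.

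**Figure D3:**
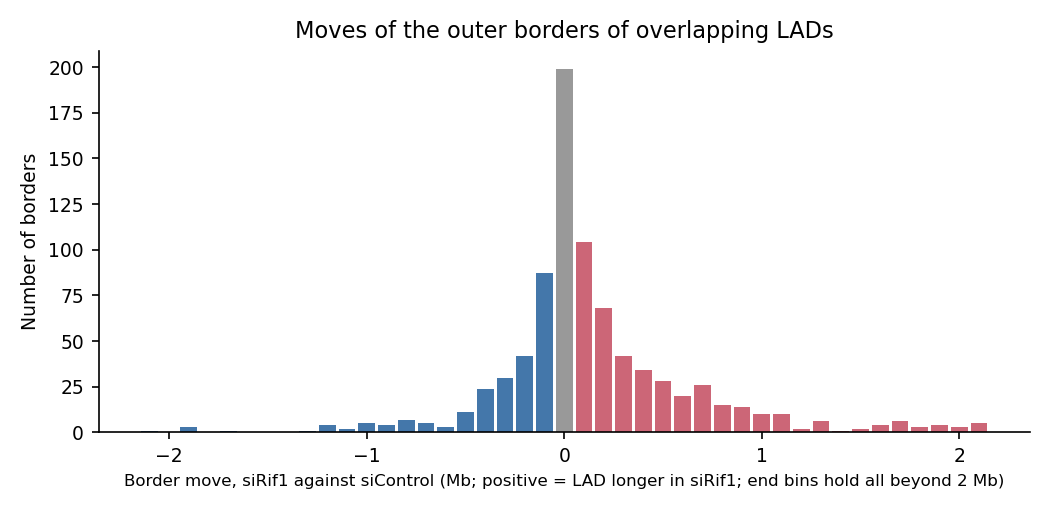
Number of outer borders (vertical axis) by the move from siControl to siRif1 in Mb (horizontal axis, steps of 0.1 Mb, positive where the siRif1 LAD reaches further), for the 836 borders of overlapping LADs. The end bins hold all moves beyond 2 Mb. The bar at 0 holds 199 borders, and 407 lie to its right against 230 to its left.

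The 5 largest outward moves reached over few genes. On chromosome 4 a left border lay 2.5 Mb further out and took in Epha7, an axon guidance receptor gene. Moves of 2.4 Mb took in the muscarinic receptor gene Chrm3 with Dip2c and Zmynd11 on chromosome 13 and Samd12, Ext1 and Colec10 on chromosome 15. Moves of 2.2 Mb took in Sugct and Cdk13, among others, on chromosome 13 (16400001 to 18600000) and Zfp608, Csnk1g3 and Cep120 on chromosome 18 (53700001 to 55900000). These 5 stretches held 1 to 7 protein-coding genes each. The 5 largest inward moves, of 1.7 to 2.8 Mb, are the stretches around Greb1l, Ptpn4, Msh3, Nedd4l and Enpp6, with 13 to 19 genes each.

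Gains fell off steadily with distance from a siControl LAD. In the first 100 kb outside a siControl border 52.1% of bases were gained, at 0.2 to 0.3 Mb 37.9%, at 0.5 to 1 Mb 25.7% and beyond 2 Mb 11.4%. Even so, the region beyond 1 Mb supplied 108 Mb of gained bases. Inside siControl LADs, 32.5% of the outermost 100 kb was lost, and 14.7 to 16.9% at depths of 0.3 to 2 Mb. Beyond a depth of 2 Mb the share was 19.1%, over only 36.7 Mb. The share lost thus varied less with distance than the share gained. By kind, gained bases were 50.0% extensions of a border, 25.2% closed gaps and 24.8% freestanding, and lost bases were 51.1, 26.3 and 22.7%. Gene density differed by kind as well. Among gained stretches it was 4.34 per Mb at borders and 2.34 in closed gaps, and among lost stretches 8.85 at borders and 14.6 where a whole siControl LAD was absent.

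**Figure D4:**
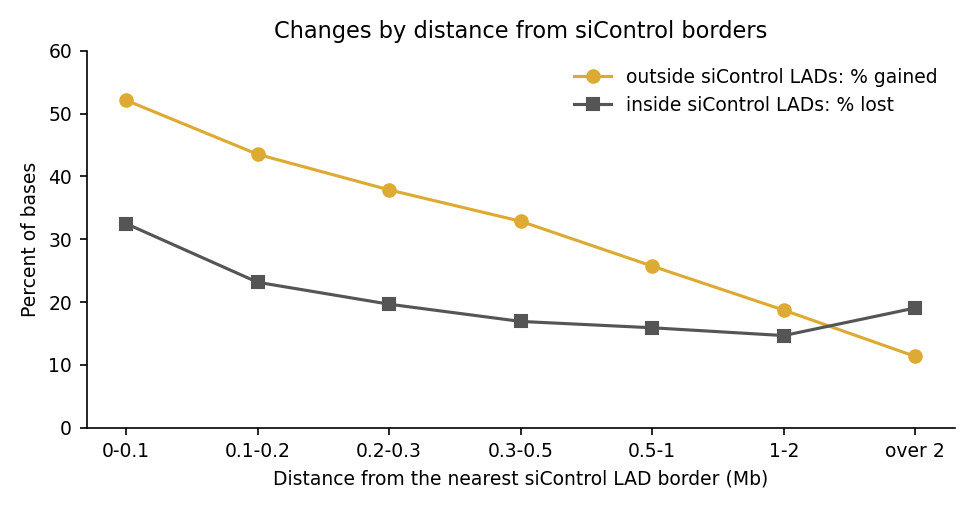
Percent of bases (vertical axis) gained outside siControl LADs (yellow circles) and lost inside them (grey squares) by distance from the nearest siControl LAD border in Mb (horizontal axis, unequal classes). Each point is 1 value from the pooled lists. Gains go from 52.1% to 11.4% and losses from 32.5% to 14.7% at 1 to 2 Mb and 19.1% beyond.

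Chromosomes differed widely, with a mean difference of 10.1 ± 7.09 percentage points (SD over 19 chromosomes, which are not replicates). Besides chromosome 9 (21.8 points), chromosomes 16 (20.1) and 13 (16.4) and chromosome 3 (35.6% in siControl and 56.7% in siRif1) stood highest. Chromosomes 17 (-3.40) and 19 (-2.81) were lower in siRif1. Their siControl coverage was 24.0% and 53.0%, in that order. Chromosome 17 had lost 47.5% of its siControl LAD bases, and chromosome 9 7.98%. Across the 19 chromosomes, the difference had little relation to gene density (Pearson correlation -0.22, Spearman correlation -0.03), points that share the same 2 pooled lists.

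**Figure D5:**
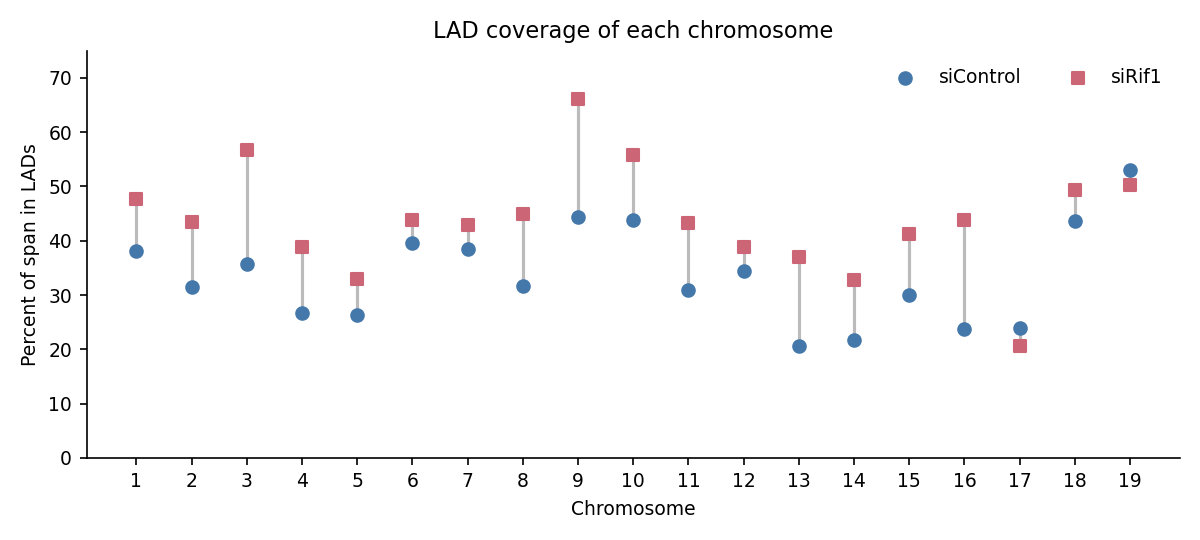
Percent of the span of each chromosome in LADs (vertical axis) in siControl (blue circles) and siRif1 (red squares), by chromosome (horizontal axis). Each point is 1 pooled list. The siRif1 value is higher on 17 of 19 chromosomes and lower on 17 and 19.

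Along chromosomes, the difference was largest on the side of the centromere, which lies at the low-coordinate end of mouse chromosomes. Each chromosome was divided into 10 parts of equal length. In part 1, nearest the centromere, coverage was 41.0% in siControl and 58.8% in siRif1 (17.8 points), and siRif1 was higher on 16 of 19 chromosomes. In parts 2 to 6 the difference was 13.1 to 14.8 points. It was 8.37 and 6.78 points in parts 7 and 8, and 1.94 and 3.26 points in parts 9 and 10, where siRif1 was higher on 9 and 11 chromosomes. The gradient lay in the gains, with 44.1% of non-LAD bases gained in part 1 and 15.0% in part 10. The share of LAD bases lost varied less, between 15.3 and 25.6%, but it too was lower on the side away from the centromere. It was 20.0% in part 1 and 22.55 to 25.6% from part 2 up to, but not including, part 6. From part 6 to part 10 it was 15.3 to 21.4%, with the lowest value in part 10.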

How the data were processed

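LaminB1 DamID was done in 4-cell embryos, 3 replicates per group. Per the submitters' processing notes, reads were handled with Trimmomatic, Bowtie2, SAMtools and Picard on mm10 (GRCm38). How LADs were called, at what threshold and with what control for Dam alone is not given in the sources used here. The authors deposited 1 list per group, pooled over replicates per the series' design text, with LAD start and end on a 100-kb grid and a score of 0 throughout. The threshold behind each list could set its coverage. The 8-cell lists were not used.

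From these, 100-kb bins were compared with Python 3.11.15, numpy 2.4.6 and pandas 2.3.3, with code tested on simulated lists. Genes came from RefSeq GRCm38.p6 (333 of 47042 autosomal entries with scaffold coordinates left out) and were placed by midpoint. LADs were joined into groups by any overlap. The members and the 38 gene lists were chosen with earlier results of these data known, so their counts are descriptions. The symbol pattern of the histone list was corrected after the annotation's symbols were seen. Alternatives varied LAD and gap length, overlap, border tolerance and gene placement. Named genes are those of the longest and most gene-rich differing stretches (up to 3 per stretch, longest first, predicted genes left out), the 10 longest genes wholly gained or lost, differing members of lists of at most 40 genes, Rif1, the lamina list, and the 5 largest border moves, closed gaps and new gaps. Other genes are examples from lists. A few genes that this rule names are not reported here.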

Additional observations from a re-analysis of the deposited data

How the results depend on the processing

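No paired analysis was possible because each group has only 1 list pooled over its replicates. For the same reason no replicate could be left out. Gained bases exceeded lost bases under the 4 changes of list or stretch definition, from 346.6 against 120.2 Mb (the other list widened by 100 kb at each border) to 408.1 against 155.3 Mb (gaps of up to 200 kb bridged). Leaving out 1 chromosome gave 366.5 to 403.8 Mb gained, 142.8 to 151 Mb lost and a net gain of 219.8 to 255.8 Mb. Lost stretches were denser in genes than gained ones, and lost genes outnumbered gained genes, under each alternative in which they were recomputed, chromosomes left out not among them. With genes placed by transcription start, known for those with a matched promoter, 1198 were gained and 1274 lost. Ribosomal protein genes lost numbered 4. Genes without a matched promoter drop out of these counts. Counting all autosomal genes, chosen after seeing the data, gave the same 1484 and 1628. With at least 50% of the length required as shared, 283 siRif1 LADs had no partner, and with at least 80%, 427 siRif1 and 215 siControl LADs. With a border move of at least 200 kb required, 303 borders lay outward, 143 inward and 390 in neither direction. Of 114 values recomputed, 108 stayed within the limits set for a change, which for LAD numbers was a factor of 1.5. Of these, 27 came from bridging gaps of up to 200 kb. Only 2 gaps in siControl and 3 in siRif1 were that short, so these values could hardly change. Counting all autosomal genes could change nothing, because the span ends at the outermost LADs. The total of 108 is therefore no measure of how firm the results are. Depth is unknown.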
